A study of Arabidopsis thaliana with 12 samples.

Results

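AT3G09080 is a protein-coding nuclear gene of Arabidopsis thaliana, and its transcript was followed here in a double mutant without plastocyanin and in wild type. It was found as the array feature, number 893, whose platform annotation gives that gene alone. It is 1 of 691 genes with a feature of their own in a table of 3439 features. Of the remaining features, 870 carried more than 1 gene name and 1877 had none in the annotation. The gene table used for names lists AT3G09080 under its locus tag only, without a descriptive name, so no function is given for it here. The gene was singled out because it differed between the genotypes in these same 12 columns. Its levels and its difference are therefore given as a description, with no test.

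A one-colour array gave the level of each feature in total RNA, in 6 columns from the pete1 pete2 double mutant, which lacks both isoforms of plastocyanin, and in 6 columns from wild type (WT). Both genotypes were of ecotype Columbia 0 and both were grown on MS medium, a mineral medium for plant culture. The sources used here give neither the age and tissue of the plants nor the number of plants or mutant lines. Columns 1 and 2, 3 and 4, and 5 and 6 of each genotype agreed far more closely than other columns, so each pair was averaged and counted as 1 replicate (n = 3). The labels do not say which columns came from separate plants, so the spread between pairs may be technical.

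Plastocyanin is a small copper protein of the thylakoid lumen, the space inside the photosynthetic membranes of the chloroplast. It takes electrons from the cytochrome b6f complex and hands them to photosystem I. Without it, linear electron flow through the membrane is interrupted, and nuclear genes can respond to the state of the plastid through retrograde signalling. In Arabidopsis it is encoded by PETE1 (AT1G76100) and PETE2 (AT1G20340), both on chromosome 1, whereas AT3G09080 lies on chromosome 3. PETE1 and PETE2 each had 0 features assigned to them, so the genotype labels have no check from those transcripts.

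The transcript of AT3G09080 was bright in all columns and brighter still in the double mutant, by 2.36-fold after normalization. The deposited intensity, in relative units that reach 100 at most, was 4.81 and 4.90 in mutant columns 1 and 2, 3.50 and 3.46 in columns 3 and 4, and 5.61 and 5.57 in columns 5 and 6. It was 1.66 and 1.65 in WT columns 1 and 2, 1.99 and 2.02 in columns 3 and 4, and 2.20 and 2.37 in columns 5 and 6. All 6 mutant columns lay above all 6 WT columns. The lowest mutant pair was that of columns 3 and 4, and the highest WT pair was that of columns 5 and 6.

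The 2 columns of a pair gave almost the same value for this gene. On the log2 scale the mutant pairs differed internally by 0.026, 0.016 and 0.0096, and the WT pairs by 0.011, 0.019 and 0.10. The median over all features within a pair lay between 0.0977 and 0.152. Only WT columns 5 and 6 differed by about as much for AT3G09080 as this median. Most features are dimmer than AT3G09080, and agreement within pairs was not compared among features of like brightness.

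**Figure D1:**
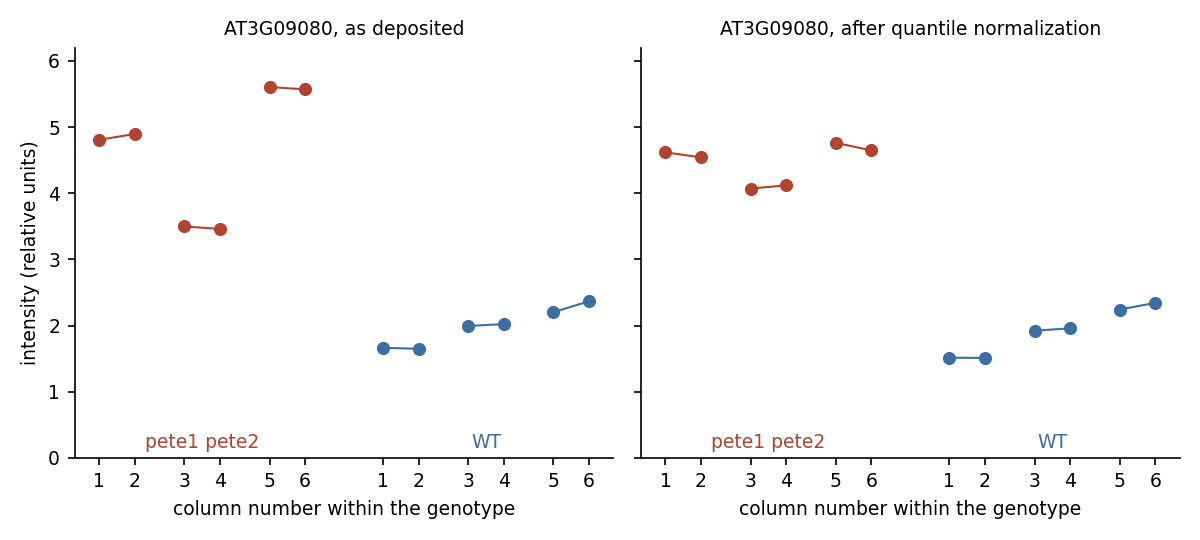
Intensity of AT3G09080 in each of the 12 columns, in relative units, as deposited (left) and after quantile normalization (right); each point is 1 column and a line joins the 2 columns of a pair. The mutant columns lie between 3.46 and 5.61 as deposited and between 4.07 and 4.76 after normalization, against 1.65 to 2.37 and 1.51 to 2.34 in WT.

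Quantile normalization gives every column the same distribution of values. After it, the pair values of AT3G09080 were 4.58, 4.10 and 4.71 in the mutant and 1.51, 1.94 and 2.29 in WT, in the order of columns 1 and 2, 3 and 4, and 5 and 6. The mean was 4.46 ± 0.322 in the mutant and 1.91 ± 0.391 in WT (SD of pair values, n = 3 each). The difference of the log2 means was 1.24 (SE 0.18), a 2.36-fold higher level in the mutant. The 9 comparisons of a mutant pair with a WT pair were all positive. They ranged on the log2 scale from 0.84, mutant columns 3 and 4 against WT columns 5 and 6, to 1.64, mutant columns 5 and 6 against WT columns 1 and 2.

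The rank of a feature within its column does not depend on any scaling between columns. AT3G09080 had 92, 94, 107, 106, 87 and 91 brighter features among 3439 in mutant columns 1 to 6. It had 414, 416, 294, 287, 243 and 228 brighter features in WT columns 1 to 6. It thus stood at a mean percentile of 97.2 ± 0.267 in the mutant and 90.9 ± 2.67 in WT (SD of pair values, n = 3 each), 6.32 percentile points apart. The mutant ranks lay closer together than those of WT, with WT columns 1 and 2 lowest in rank and columns 5 and 6 highest. Features are sparser near the top of a column, where the same change in intensity moves fewer ranks. The SDs in percentile points can therefore not be compared directly between the genotypes.

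The spread between pairs, set beside that of other features, was unequal in the genotypes. After quantile normalization the SD of the log2 pair values of AT3G09080 was 0.11 in the mutant and 0.30 in WT. Over the 3001 features above the lower limit of the values in all columns, the median SD was 0.34 in the mutant and 0.32 in WT. A smaller SD than that of AT3G09080 was found for 7.43% of these features in the mutant and for 46.2% in WT. The low spread in the mutant depended on the scaling. The SD of the gene was 0.35 in the mutant and 0.23 in WT with the values as deposited, and 0.41 in the mutant and 0.24 in WT with totals as the scale. With cyclic loess it was 0.20 in both. The SDs entered the choice of the gene, so this too is a description.

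The columns differed in shape, and the level of AT3G09080 within the mutant moved with that shape. The median of all features, averaged over the columns of a pair, was 0.401, 0.659 and 0.342 in the mutant, where the deposited level of the gene was 4.85, 3.48 and 5.59. It was 0.625, 0.487 and 0.522 in WT, where the level of the gene was 1.66, 2.01 and 2.28. In the mutant the pair with the highest median had the lowest level of AT3G09080, and the pair with the lowest median had the highest. In WT the pair with the highest median also had the lowest level.

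The bright end of the columns went the same way as the gene in the mutant. The 97th percentile of a column was 4.44, 3.63 and 5.002 in the mutant pairs and 3.91, 4.25 and 4.12 in the WT pairs. AT3G09080 was at 1.09, 0.959 and 1.12 times this percentile in the mutant and at 0.423, 0.472 and 0.555 times it in WT. The gene's own mean percentile in the mutant was 97.2, so ratios near 1 in the mutant restate its rank and add nothing to it. The gene was below the 97th percentile in all WT pairs and also in mutant columns 3 and 4. Mutant columns 3 and 4 and WT columns 1 and 2 were the pairs with the most similar medians, 0.659 and 0.625. Between them the deposited values of AT3G09080 differed by 1.07 on the log2 scale, while the median log2 difference of all features was 0. Features at the lower limit in both pairs differ by exactly 0 and enter that median. The log2 ratio of the column medians was 0.077. This comparison was picked for its similar medians. The part of column shape was not tested, either in this comparison or in the others.

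**Figure D2:**
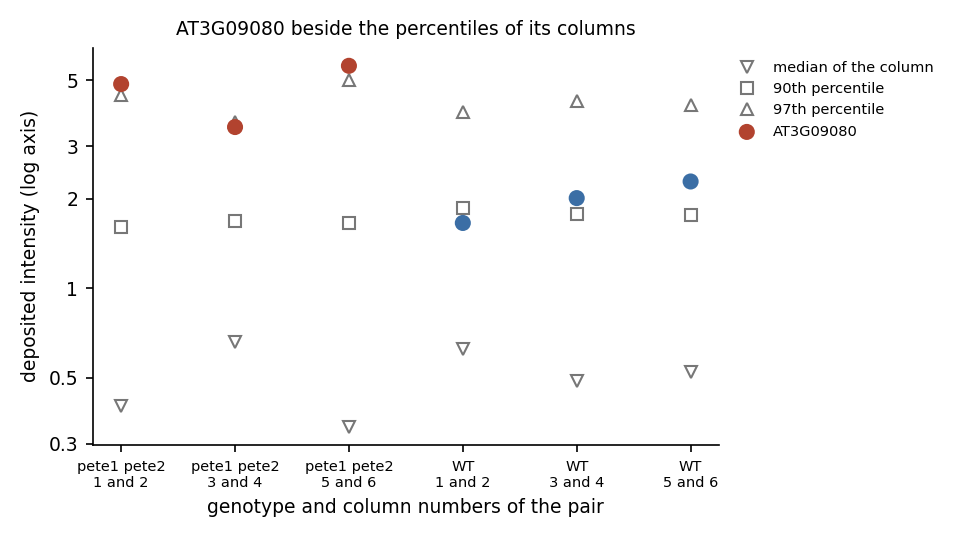
Deposited intensity of AT3G09080 (filled points, red in the mutant and blue in WT) beside the median, the 90th and the 97th percentile of all features (open symbols) for each pair of columns, on a log axis. The gene lies close to the 97th percentile in the 3 mutant pairs and close to the 90th percentile in the 3 WT pairs.

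The size of the difference depended on the scaling, its direction did not. The log2 difference was 1.21 (SE 0.24) with the values as deposited and 1.23 (SE 0.27) with each column scaled to its total. It was 1.22 (SE 0.17) with cyclic loess, which removes differences between columns that depend on brightness. It was larger and less certain with each column centred on its median, at 1.48 (SE 0.54), and with each column scaled to its 75th percentile, at 1.43 (SE 0.43).

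Median centring and the 75th percentile spread the mutant pairs furthest apart, with SDs of 0.84 and 0.65 on the log2 scale, against 0.39 and 0.35 for the WT pairs. With median centring the pair values became 5.97, 2.60 and 8.06 in the mutant and 1.31, 2.03 and 2.16 in WT. The lowest of the 9 pair comparisons was then 0.27 on the log2 scale, mutant columns 3 and 4 against WT columns 5 and 6, and the highest was 2.62. With the 75th percentile the same comparisons gave 0.42 and 2.33. Cyclic loess gave pair values of 4.65, 3.81 and 4.99 in the mutant and 1.67, 1.88 and 2.22 in WT, with comparisons from 0.78 to 1.58. All 3 mutant pairs lay above all 3 WT pairs under each of the 6 scalings.

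Scaling also moved the median of all features. The median log2 difference between mutant and WT was -0.01 after quantile normalization, -0.27 in the deposited values and -0.26 when columns were scaled to their totals. Relative to this median, the difference of AT3G09080 was 1.25 after quantile normalization, 1.48 as deposited, 1.49 with scaling to the total and 1.24 with cyclic loess. It was 1.49 with both median centring and the 75th percentile. The deposited values and median centring, which gave 1.21 and 1.48 for the gene itself, thus gave nearly the same difference relative to all features. This follows from the method for the median, the total and the 75th percentile. Each divides a column by 1 number, which moves all features alike except those at the lower limit.

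**Figure D3:**
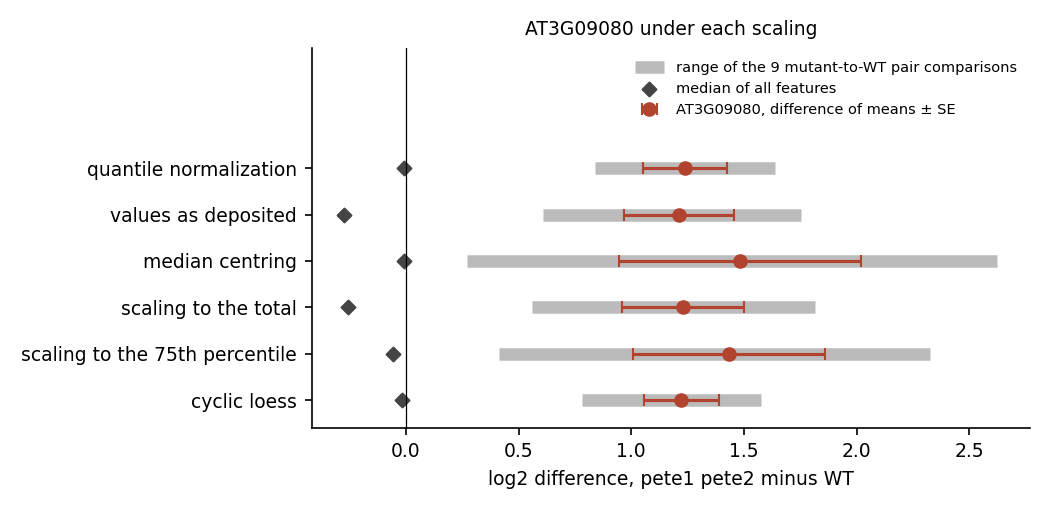
Log2 difference of AT3G09080, pete1 pete2 minus WT, under 6 scalings: red points and bars give the difference of means ± SE, grey bars the range of the 9 comparisons of a mutant pair with a WT pair, and black diamonds the median of all features. The points lie between 1.21 and 1.48, and the grey bars are widest for median centring, from 0.27 to 2.62, and do not reach 0.

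Same-numbered pairs give a further view, although the labels do not say that a number links the genotypes. After quantile normalization the mutant exceeded WT by 1.60 on the log2 scale in columns 1 and 2, by 1.08 in columns 3 and 4 and by 1.04 in columns 5 and 6. With the values as deposited these differences were 1.55, 0.79 and 1.29. Leaving out 1 pair of columns moved the difference of means to between 1.08, without WT columns 1 and 2, and 1.38, without WT columns 5 and 6.

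Among all 3439 features, 25 had a larger log2 difference in favour of the mutant than AT3G09080 after quantile normalization, and 11 did with the values as deposited. Among the 692 features of 1 gene, 3 had a larger one after quantile normalization, 6 with cyclic loess and 1, TPP2, under each of the other 4 scalings. AT4G20850 (TPP2), tripeptidyl peptidase II, had a log2 difference of 1.51 (SE 0.38). AT4G14010 (RALFL32), named as a relative of the rapid alkalinization factor peptides, had 1.42 (SE 1.06), and AT1G42960 had 1.36 (SE 0.88). The last 2 were chosen for mention after their values were seen, and their genotypes overlapped. Each was at the lower limit in 2 of the 12 columns, both of WT, so that its difference depends on where that limit was set. For AT3G09080 the gap between the lowest mutant and the highest WT pair was 0.84 on the log2 scale after quantile normalization. With that scaling 0 other features of 1 gene and 4 features of all had a wider one. The gene was chosen for rising consistently in these same columns, so its place in these rankings follows from the choice.

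Limma with Benjamini-Hochberg adjustment at 0.05 called 0.0291% of the 3438 tested features higher in the mutant, which was 1 feature other than AT3G09080, and 0% lower. Before adjustment, a p under 0.05 was reached by 159 features with a higher and 92 with a lower level in the mutant. The balance turned with other scalings, at 79 higher and 161 lower as deposited and 86 higher and 172 lower when columns were scaled to their totals. All 3 mutant pairs lay above all 3 WT pairs for 5.56% of the tested features, AT3G09080 among them, and below them for 4.36%. A log2 difference of at least 1 was reached by 1.51%, again with AT3G09080 among them. The gene was chosen from this comparison, so nothing is read from these shares.

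Genes whose pattern was most like that of AT3G09080 were sought among 598 other features of 1 gene that lay above the lower limit in all columns. Likeness was Pearson's r of the log2 values over the 6 pair means, which share their columns and their scaling. The highest r was 0.950, the median was -0.096, and 9 genes exceeded 0.9 while 8 lay below -0.9. With so few points, high values in both directions are common among so many genes.

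The 5 most similar genes were all higher on average in the mutant, as the choice by likeness brings with it. AT3G26580 (r = 0.950) measured 2.32, 2.44 and 2.41 in the mutant pairs and 1.60, 1.53 and 1.92 in the WT pairs. AT4G20850 (TPP2, r = 0.946), known in mammals to trim peptides released by the proteasome, measured 0.745, 0.426 and 0.763 in the mutant and 0.190, 0.176 and 0.318 in WT. AT4G27390 (r = 0.944) measured 1.73, 1.40 and 1.82 in the mutant and 0.957, 1.18 and 1.09 in WT. TPP2 and AT4G27390 shared with AT3G09080 the low value in mutant columns 3 and 4, whereas AT3G26580 did not.

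AT2G44760 (r = 0.935) measured 1.85, 1.99 and 2.07 in the mutant and 1.46, 1.61 and 1.51 in WT, a log2 difference of 0.36 (SE 0.061). AT3G57120 (r = 0.925) measured 2.30, 3.05 and 2.62 in the mutant and 1.13, 1.53 and 1.92 in WT, a log2 difference of 0.83 (SE 0.25). AT3G57120 followed the order of the WT pairs of AT3G09080, lowest in columns 1 and 2 and highest in columns 5 and 6. In all 5 genes the lowest mutant pair lay above the highest WT pair, as it did for 5.56% of all tested features. Choosing by likeness to a gene with separated genotypes favours such genes, so nothing is read from this. Of the 5, TPP2 differed by more than AT3G09080 and the others by less.

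**Figure D4:**
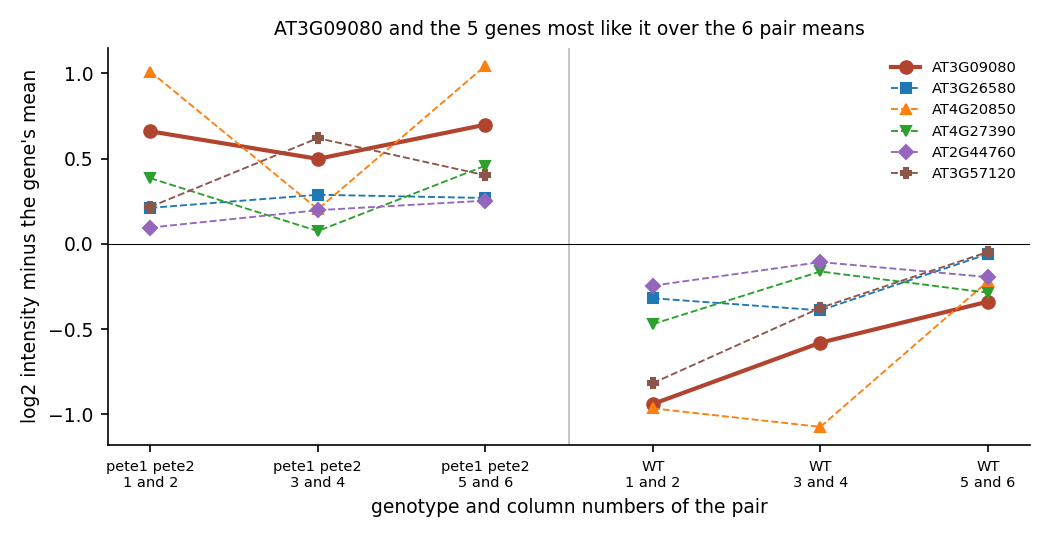
Log2 intensity of AT3G09080 and of the 5 genes most like it in each pair of columns, after quantile normalization and minus each gene's own mean over the 6 pairs; lines join the pairs of 1 genotype as a guide only. All 6 genes lie above 0 in the mutant pairs and below 0 in the WT pairs, and AT4G20850 (TPP2) and AT3G09080 span the widest range.

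Likeness within genotypes was measured on the deviations of the pair values from the mean of their genotype, which leaves the genotype difference out. Over the same 598 genes, 4 exceeded an r of 0.9 while 19 lay below -0.9, and the lowest was -0.984. With so few points, nothing is read from a high r. AT2G26110 had the highest r of the deviations, 0.982. It measured 1.70, 1.39 and 1.90 in the mutant and 0.785, 1.63 and 2.02 in WT, so that it followed AT3G09080 from pair to pair while its log2 difference between genotypes was 0.27 (SE 0.43). AT5G58410 (r = 0.953), AT4G39760 (r = 0.928), AT4G39570 (r = 0.926) and AT3G22690 (r = 0.892) came next. Their log2 differences between genotypes were 0.48, 0.30, 0.10 and -0.02. The first of these, AT5G58410, was dim, at 0.187 ± 0.0212 in the mutant and 0.135 ± 0.0264 in WT (SD, n = 3 each).

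None of the 5 genes most like AT3G09080 over the 6 pair means was among the 5 most like it within genotypes. AT3G26580 had an r of 0.571 within genotypes, TPP2 one of 0.715, AT4G27390 one of 0.654, AT2G44760 one of 0.293 and AT3G57120 one of 0.714. The genotype differences of AT5G58410, AT4G39570 and AT3G22690 depended on the scaling, at 0.054, -0.10 and -0.36 with the values as deposited. That of AT4G39570 was also negative, at -0.08, with scaling to the total, and positive in the other scalings.

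Genes of similar brightness differed less between the genotypes, which the choice of AT3G09080 for its difference makes likely beforehand. The 2 next dimmer genes in the mean of all columns were AT1G13990, at 2.66 ± 0.227 in the mutant and 2.54 ± 0.0876 in WT, and AT3G06870, at 3.17 ± 0.968 in the mutant and 2.64 ± 0.471 in WT (SD, n = 3 each). The 2 next brighter were AT4G31470, at 3.16 ± 0.432 in the mutant and 2.90 ± 1.09 in WT, and AT4G13680, at 3.53 ± 1.17 in the mutant and 2.57 ± 0.263 in WT. Their log2 differences were 0.07, 0.23, 0.18 and 0.41. AT1G13990, AT3G06870 and AT4G13680 were highest in mutant columns 3 and 4, at 2.92, 4.28 and 4.87, the pair in which AT3G09080 was lowest within the mutant. AT4G31470 was, like AT3G09080, lowest within the mutant in that pair, at 2.67.

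Features with neighbouring numbers differed together on these arrays, which bears on a single feature. Across features, which are no independent replicates, the genotype difference correlated with r of 0.16 between features 1 apart and 0.12 between those 288 apart. The distance of 288 was picked because the WT pairs' differences correlated most there, in a limited search that left out short distances. The 10 features nearest in number to AT3G09080, numbers 885 to 899, had a median log2 difference of -0.20, and 4 of the 10 were positive after quantile normalization, beside 3 as deposited and 5 with median centring. The features at a distance of 288 on either side had log2 differences of -0.20 and 0.23. Under each of the 6 scalings AT3G09080 had a larger difference in favour of the mutant than all 10 neighbours, the largest of which in that direction was 0.84 after quantile normalization and 0.99 with median centring. AT3G09080 exceeded the median of its 10 neighbours by 1.44. Because the gene was chosen for its difference, it would stand above nearly any such set of features. An effect of position on this feature was not tested.

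The neighbours were not all low. AT3G23490 (CYN), the cyanase that breaks down cyanate, was 3 numbers away. It measured 2.63, 1.79 and 2.05 in the mutant pairs and 1.34, 1.46 and 1.03 in the WT pairs, a log2 difference of 0.75 (SE 0.22). AT4G27250, 3 numbers away on the other side, measured 1.38, 2.58 and 1.39 in the mutant and 1.05, 1.15 and 1.03 in WT, a log2 difference of 0.67 (SE 0.30). Feature 899, not listed in the annotation, had a log2 difference of 0.84 (SE 0.16). The next feature in number, 892, had -0.22 (SE 0.59). Feature 886 had -2.04 (SE 0.84), larger in size than the difference of AT3G09080 and in the opposite direction.

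**Figure D5:**
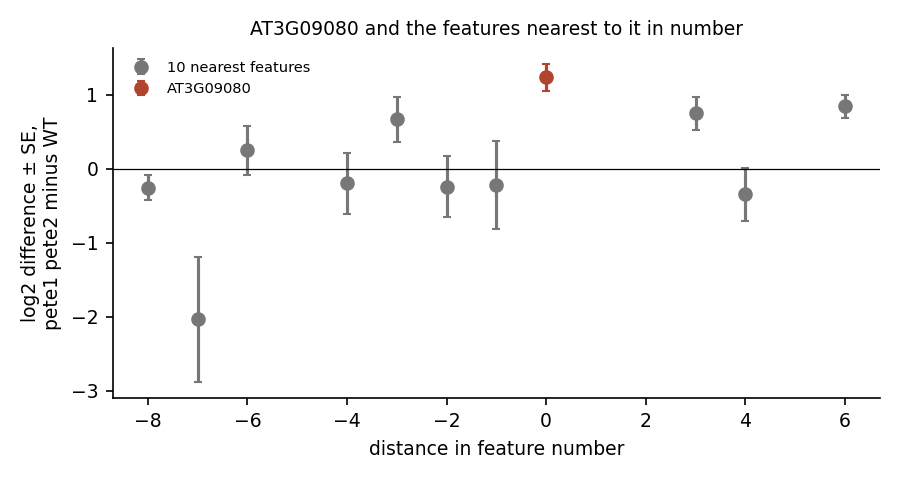
Log2 difference, pete1 pete2 minus WT, with its SE for AT3G09080 (red) and the 10 features nearest to it in number (grey), by distance in feature number. AT3G09080 at 1.24 lies above all 10, which run from -2.04 to 0.84.

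Neighbours on the chromosome gave little to compare. Of the 5 protein-coding genes on each side of AT3G09080 in the gene table, only AT3G09050 had a feature of its own. It is 4 genes away and measured 0.859, 0.669 and 0.862 in the mutant pairs and 0.828, 0.958 and 0.703 in the WT pairs. Its log2 difference was -0.06 (SE 0.18), and the genotypes overlapped. OPS (AT3G09070), the next gene on that side, shares 1 feature with other genes and was not analysed here.

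Transcripts of green tissue were present in both genotypes. Of 10 listed markers of photosynthetic tissue 7 were measured, and their summed intensity was between 49.4 and 71.9 in the mutant pairs and between 44.2 and 73.0 in the WT pairs. Most of each sum came from 1 gene, PSBW, at 44.6, 58.4 and 29.2 in the mutant pairs and 46.8, 27.1 and 23.2 in the WT pairs. The sums therefore say little about the other markers. The median log2 difference of the 7 markers was -0.23, with 3 positive and 4 negative, beside -0.01 for all features. This direction depended on the scaling, since the marker median became 0.13 with median centring and 0.085 with the 75th percentile. Of 9 listed root markers 0 were measured, so the share of root tissue was not analysed here. In whole tissue, more transcript per cell and more cells that carry it cannot be told apart.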

How the data were processed

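The deposited table holds linear intensity values between 0 and 100 in 12 columns; scanner, background correction and divisor are not given in the sources used here. Samples were grouped by title. Column totals lay between 3493 and 3778, column medians between 0.341 and 0.659, and 170 to 264 features were listed at 0. The highest value of a column was 100 in all mutant columns and in WT columns 3 and 4. It was 62.0 and 71.0 in WT columns 1 and 2, and 94.5 and 94.2 in WT columns 5 and 6. WT columns 1 and 2, with the lowest maxima, also had the lowest deposited level of AT3G09080. What part these unequal maxima had in the deposited difference was not tested. After quantile normalization, a floor of 0.0225, percentile 1 of all positive deposited values, was set before taking log2. Pairs of columns were averaged on the log2 scale. The deposited intensity values went unscaled into 1 alternative. For the fit, the features of the 1 gene that had several were averaged. Names come from the platform annotation for features of 1 gene, of which 690 of 692 matched the TAIR10.1 gene table, used for names and gene order only. Differences over all features were fitted with limma 3.58.1 in R 4.3.3, tested on simulated data. Same-numbered pairs of the genotypes deviated together with r of 0.32, 0.00056 and 0.39. These values do not settle whether the number links the genotypes, and the labels do not say. The number was not taken as a pairing in the main fit, and a replicate block was an alternative.

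AT3G09080 and the lists were chosen with earlier results of these data known. Other genes were named by likeness in pattern, by brightness, by feature number, by place on the chromosome and from a list of WD40 proteins, which had 10 members by synonym and 0 measured. Alternatives were the scalings, a pseudocount of 0.0872, filters on dim features, a subtraction of the neighbours' median, a replicate block, the 12 columns as separate samples, and leaving out each column or pair. The number of arrays limits the precision.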

Additional observations from a re-analysis of the deposited data

How the results depend on the processing

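The difference of AT3G09080 was 1.24 on the log2 scale after quantile normalization and between 1.21 and 1.48 under the other 5 scalings. It moved by more than the replicate SD of 0.23 with median centring only, at 1.48. It was 1.20 with the pseudocount and 1.44 with the neighbours' median subtracted. The dim-feature filters, the replicate block and the 12 columns leave the mean difference nearly or exactly as it was by construction. Since the gene was chosen with all mutant columns above all WT columns, leaving out columns could not turn its direction. Leaving out a pair gave 1.08 to 1.38, and leaving out a column 1.23 to 1.25. The replicate block left the difference at 1.24 (SE 0.18). The difference in percentile was between 4.85 and 7.46 points when a pair was left out. A dim-feature limit does not touch this gene, since it was far above the lower limit in all columns.

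Features called by limma over the whole table (Benjamini-Hochberg) numbered 1 after quantile normalization. There were 0 with each of the deposited values, median centring, the 75th percentile, totals as the scale and the replicate block, 2 with cyclic loess, 2 without the dimmest 50% of features, 19 with pairs as a random block and 224 with the 12 columns as separate samples. The last 2 fits take degrees of freedom from columns that agree closely within a pair. Leaving out a pair gave 0 to 2: 0 without mutant columns 1 and 2, 3 and 4 or 5 and 6, or WT columns 5 and 6, and 2 without WT columns 3 and 4. At an unadjusted p under 0.05, 240 features passed as deposited, 198 after median centring, 258 when scaled to totals, 229 with the 75th percentile and 253 with the replicate block. Of the 5 most similar genes, 4 remained among the first 5 with the values as deposited, 5 with 12 columns and 2 with Spearman's rank correlation, where 7 genes tie for the first 5 places. Unless stated, the cause was not tested.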
